A study of Homo sapiens with 6 samples.

Results

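Knockdown of 25 genes that make cholesterol, sense it or export it from lysosomes was followed in a genome-wide CRISPR interference (CRISPRi) screen for the level of an opioid receptor. The genes were taken by name, and every row of the count files whose sgRNA identifier carries one of these gene names before the strand sign was used. Of 290 such rows, 146 had at least 50 reads in one of both libraries of their sublibrary, and the other 144 had 0 reads in every library. These 146 sgRNAs stand among 101314 analysed sgRNAs with a target gene, and the 25 genes among 18905 genes.

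The screen was run in HEK293-FLP cells, a human embryonic kidney line with a recombination site, which held the receptor fusion DOR-MRS(WT)-APEX2 and dCas9-KRAB with a blue fluorescent protein. DOR is the delta opioid receptor, here with the tail of the mu opioid receptor that carries a recycling signal, and APEX2 is a peroxidase that turns Amplex UltraRed into a fluorescent product. dCas9-KRAB is an inactive Cas9 joined to a repressor domain, and an sgRNA leads it to the promoter of a gene, which is then silenced. Cells were given 1 of 3 pooled sublibraries (H17, H23 or H456), treated with 10 µM of the opioid peptide DADLE for 90 min after 8 days of knockdown, reacted and sorted, and the top and the bottom quartile of fluorescence were sequenced. All 6 libraries share the clonal line, the receptor transgene, puromycin at 0.75 µg/ml and the agonist, with no arm without agonist. Changes in synthesis, trafficking and degradation of the receptor therefore cannot be told apart. The sort was on the fluorescent product, so changes in the APEX2 reaction itself cannot be told apart from these either. The times of agonist and knockdown are those of the sample labels, and the methods of the paper state a shorter knockdown and a longer agonist treatment for the assay.

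Cholesterol is built from acetyl-CoA through the mevalonate pathway, which ends in farnesyl pyrophosphate, and then through squalene and lanosterol and a set of sterol conversions. The pathway is governed by SREBP transcription factors, which SCAP carries from the endoplasmic reticulum to the Golgi for cleavage when sterols are scarce and which INSIG proteins hold back when sterols are abundant. Cholesterol taken up with lipoproteins leaves the lysosome, the compartment in which receptors are also degraded, through NPC1 and NPC2.

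The identifiers give the gene, strand and position of an sgRNA, and none of the sources used here gives its letters or the genome build of the position. Promoters could be looked up in RefSeq (GRCh38.p14) for 23 of the 25 genes, as windows of 250 bases before and 50 bases after a start site. FDFT1 and SQLE were not matched, and without a build the sgRNAs could not be placed in these windows. Shown are MSMO1 (chr4:165327419-165327718, plus strand) and CYP51A1 (chr7:92134428-92134727, minus strand), sterol conversion genes whose sgRNAs all had positive phenotypes, and SREBF2 (chr22:41832855-41833154, plus strand), which encodes the SREBP that acts mainly on cholesterol genes. No promoter is shown for the genes with negative phenotypes only, because IDI1 had 3 listed promoters, and HSD17B7 had 1 for 2 targeted start sites. Capitals mark the letters TCACNCCAC, the core of a sterol regulatory element, and CCAAT, the box bound by NF-Y, on either strand, and each sequence reads 5′ to 3′ along the strand of its gene.
MSMO1: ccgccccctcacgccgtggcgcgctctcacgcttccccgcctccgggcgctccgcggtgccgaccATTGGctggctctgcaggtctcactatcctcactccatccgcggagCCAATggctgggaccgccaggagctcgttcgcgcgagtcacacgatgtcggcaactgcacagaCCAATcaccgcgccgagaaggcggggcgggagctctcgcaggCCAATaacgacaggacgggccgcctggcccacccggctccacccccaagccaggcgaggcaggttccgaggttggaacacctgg
CYP51A1: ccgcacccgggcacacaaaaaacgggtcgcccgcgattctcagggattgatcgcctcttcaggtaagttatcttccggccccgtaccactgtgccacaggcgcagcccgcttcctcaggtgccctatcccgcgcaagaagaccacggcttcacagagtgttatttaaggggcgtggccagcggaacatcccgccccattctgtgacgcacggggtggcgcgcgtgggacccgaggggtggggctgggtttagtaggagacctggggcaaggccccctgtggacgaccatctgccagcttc
SREBF2: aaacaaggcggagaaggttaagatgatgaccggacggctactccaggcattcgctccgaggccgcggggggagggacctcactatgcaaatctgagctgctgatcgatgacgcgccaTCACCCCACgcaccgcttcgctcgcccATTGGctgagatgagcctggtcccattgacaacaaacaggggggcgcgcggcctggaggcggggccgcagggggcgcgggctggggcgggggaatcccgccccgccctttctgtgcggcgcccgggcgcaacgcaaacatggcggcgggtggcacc
Both motifs were searched on both strands in the promoters of all genes. TCACNCCAC was found in 1.13% of 35116 promoters and in 1 of the 29 listed for the 23 genes, that of SREBF2, 133 bases before the start site. CCAAT was found in 34.6% of the promoters, and in 16 of the 29 listed for the 23 genes, with 4 matches in MSMO1, 1 in SREBF2 and 0 in CYP51A1. A match is a description of these letters and not a binding site.

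For each sgRNA, the phenotype was log2 of the ratio of 2 read shares, top quartile library over bottom quartile library, centred on the nontargeting control (NTC) sgRNAs by subtracting their median within the sublibrary. A negative phenotype is thus enrichment in the cells of low fluorescence. The libraries held between 23426498 and 50486627 reads, and a phenotype of 0 stands for a ratio of top to bottom reads of 0.805 in H17, 1.19 in H23 and 0.588 in H456, since the totals differed. The sgRNAs of the 25 genes had 70 to 3667 reads in the top libraries and 63 to 2768 reads in the bottom libraries, which gives a counting SD of 0.036 to 0.23 (median 0.064) on the log2 scale. Counting SDs cover counting error only, as the PCR reads have no molecular identifiers. The NTC sgRNAs spread more widely than counting alone, with an SD of 0.47 in H17 (n = 553), 0.28 in H23 (n = 570) and 0.30 in H456 (n = 739). With 1 library per quartile and sublibrary there were no replicates, and each p compares sgRNAs in the libraries of 1 sort, not cultures.

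The phenotypes of the cholesterol genes were small. Gene phenotypes, each the mean over the sgRNAs of a start site, ran from −0.27 for DHCR7 to 0.30 for NPC2, with 14 below and 11 above 0. The median was −0.0053, beside 0.0013 over all 18905 genes. In the two-sided exact Mann-Whitney test against the NTC sgRNAs, with p adjusted by Benjamini-Hochberg across all genes, 0 of the 25 genes were called at 0.05 in either direction, and the lowest adjusted p was 0.27 for MSMO1. Over all genes, 0.381% were called with a negative and 0.0952% with a positive phenotype, and a count of 0 among 25 is close to that background. At an unadjusted exact p under 0.05 there were 5 of 25. IDI1 and HSD17B7 were negative (8% of the genes, against 4.05% of all genes), and CYP51A1, MSMO1 and NPC2 were positive (12%, against 4.07%). A mean of at most −0.3 was reached by 0 of the genes, against 4.41% of all genes, and a mean of at least 0.3 by NPC2 alone, or 4% against 2.22%. A missed threshold does not show that knockdown of a gene left the receptor as it was.

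The first 6 genes make up the mevalonate pathway: HMGCS1 (HMG-CoA synthase), the kinases MVK and PMVK, the decarboxylase MVD, the isomerase IDI1 and the farnesyl pyrophosphate synthase FDPS. Of these, 4 had a negative and 2 a positive mean, with a median of −0.078 and 0 calls after adjustment. IDI1, which interconverts the basic isoprenoid units, was the most uniform. Its sgRNAs had 701, 1116, 1007, 2115 and 988 reads in the top quartile library of H23, against 733, 1144, 1030, 2102 and 840 reads in the bottom quartile library. All 5 phenotypes were below 0, and 4 of them lay between −0.31 and −0.24, with the last at −0.013. They lie within 82 bases, and 2 of them overlap on 1 strand. The mean was −0.22 ± 0.12 (SD, n = 5), 0.856-fold top over bottom, with an exact Mann-Whitney p of 0.022 and an adjusted p of 0.48. The start of WDR37 lies 319 bases from a listed start of IDI1, and sgRNAs against WDR37 had a mean of 0.071 ± 0.22 (SD, n = 5).

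PMVK, the phosphomevalonate kinase, had a mean as low but far less even. Its sgRNAs had 248, 689, 721, 1496 and 632 reads in the top quartile library of H17, against 602, 1030, 967, 1984 and 712 reads in the bottom quartile library. A single sgRNA stood at −0.97, the lowest phenotype of all 146, and the other 4 ran from −0.27 to 0.14. The mean of −0.26 ± 0.42 (SD, n = 5, exact p = 0.22) was −0.083 without that sgRNA. HMGCS1, which condenses acetyl-CoA units into HMG-CoA, was split in the same sublibrary, with phenotypes of −0.48, −0.34, −0.091, 0.035 and 0.35. Its mean was −0.11 ± 0.32 (SD, n = 5, exact p = 0.54). MVK, the mevalonate kinase, had a mean of −0.051 ± 0.17 (SD, n = 6, exact p = 0.72), and 2 of its 6 sgRNAs are also listed under MMAB, whose start lies 290 bases away and whose own mean was 0.0088 ± 0.39 (SD, n = 6).

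The later steps MVD and FDPS lay on the positive side, both in H23. MVD, the mevalonate diphosphate decarboxylase, had a mean of 0.17 ± 0.15 (SD, n = 5, exact p = 0.091, adjusted p = 0.70), and 4 of its 5 sgRNAs were above 0. FDPS, which makes farnesyl pyrophosphate for sterols and for prenylation, had a mean of 0.18 ± 0.27 (SD, n = 5, exact p = 0.18). The FDPS value rested largely on its least abundant sgRNA, with 338 reads in the top library and 182 reads in the bottom library and a phenotype of 0.65, above the central 95% of the NTC sgRNAs (−0.64 to 0.51 in H23). Without it, the mean of FDPS was 0.065. IDI1 and MVD, which catalyse neighbouring steps and were read in the same libraries, thus had means of opposite sign, and their difference was not tested.

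Squalene and lanosterol formation was represented by FDFT1 (squalene synthase), SQLE (squalene epoxidase) and LSS (lanosterol synthase), and all 3 stayed close to 0. FDFT1 was targeted at 2 start sites in H456, with means of −0.0053 ± 0.083 and 0.0022 ± 0.16 (SD, n = 5 each, exact p = 0.86 and 0.91). The sgRNAs of the first site agreed closely, and 2.43% of the 17304 genes with 5 sgRNAs had a lower SD. SQLE, a rate-limiting enzyme of the sterol branch, had a mean of −0.087 ± 0.17 (SD, n = 5, exact p = 0.51). LSS had a mean of 0.016 ± 0.26 (SD, n = 5, exact p = 0.72), with sgRNAs from −0.36 to 0.30.

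The 7 genes that convert lanosterol onwards held the most members of one sign. CYP51A1, the lanosterol demethylase, and MSMO1, the methylsterol monooxygenase that acts a few steps later, were positive with every sgRNA, and HSD17B7, a ketosteroid reductase of the same demethylation series, was negative with every sgRNA at the start site used. At least 4 sgRNAs, all of them positive, were found for 2 of the 25 genes (8%), against 5.26% of all 18905 genes. At least 4 sgRNAs, all of them negative, were found for 2 (8%), HSD17B7 and IDI1, against 4.34% of all genes. The list had 5 negative and 2 positive means, a median of −0.072 and 0 calls after adjustment.

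For MSMO1, the sgRNAs had 1063, 1376, 1104, 724 and 845 reads in the top quartile library of H456, against 1581, 2041, 1562, 1021 and 1144 reads in the bottom quartile library. The top counts are the lower ones because the top library had fewer reads, and relative to the NTC sgRNAs each sgRNA was higher in the top quartile. The phenotypes were 0.19, 0.20, 0.27, 0.27 and 0.33, and their SD was about the same as the median counting SD of 0.057. The mean was 0.25 ± 0.057 (SD, n = 5), 1.19-fold top over bottom, with an exact p of 0.0042 and an adjusted p of 0.27. Only 0.589% of genes with 5 sgRNAs had a smaller SD. The 5 sgRNAs are not independent in their targets, since they lie within 34 bases and 4 of them are closer than 20 bases to another on the same strand, so that they share target bases. A span this short or shorter was found for 0.647% of genes with 5 sgRNAs, and the median span was 404 bases.

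CYP51A1 was read in other libraries and with other spacing. Its sgRNAs had 1173, 1334, 1927, 876 and 1309 reads in the top quartile library of H23, against 908, 1022, 1436, 621 and 828 reads in the bottom quartile library. They spanned 427 bases with no pair overlapping on a strand, and all 5 phenotypes lay between 0.12 and 0.41. The mean was 0.22 ± 0.12 (SD, n = 5), 1.16-fold top over bottom, with an exact p of 0.022 and an adjusted p of 0.49.

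HSD17B7 was targeted at 2 start sites in H17, and they differed in sign. At the site with the lower p, the sgRNAs had 615, 1357, 744, 925 and 575 reads in the top quartile library, against 1035, 2015, 1084, 1331 and 754 reads in the bottom quartile library. All 5 were below 0, between −0.44 and −0.078, and 3 of them overlap another on the same strand. The mean was −0.24 ± 0.13 (SD, n = 5), 0.845-fold top over bottom, with an exact p of 0.041 and an adjusted p of 0.58. At the other site the mean was 0.092 ± 0.16 (SD, n = 5, exact p = 0.34), with 1 of 5 sgRNAs below 0, and over both sites together it was −0.076.

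Of the remaining sterol conversion genes, DHCR7 had the lowest mean. DHCR7 makes cholesterol from 7-dehydrocholesterol in the last step. Its sgRNAs had 70, 178, 306, 512 and 455 reads in the top quartile library of H17, against 135, 314, 469, 630 and 543 reads in the bottom quartile library. The 3 sgRNAs with the fewest reads had phenotypes of −0.63, −0.51 and −0.30, and the 2 more abundant ones had phenotypes of 0.014 and 0.058. The mean was −0.27 ± 0.31 (SD, n = 5, exact p = 0.11, adjusted p = 0.73), and the lowest sgRNA had a counting SD of 0.21. DHCR7 also had the fewest reads of the 25 genes, with a median sgRNA at 0.573 times the median of the sublibrary and 11.4% of all genes lower. No library from before the sort was analysed here, so that the loss of cells with an sgRNA cannot be told apart from its level in the plasmid pool.

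TM7SF2, a sterol reductase, had a mean of −0.072 ± 0.18 (SD, n = 5, exact p = 0.48). NSDHL, a sterol dehydrogenase, had a mean of −0.077 ± 0.25 (SD, n = 5, exact p = 0.69), with sgRNAs from −0.46 to 0.17. The start of CETN2 lies 306 bases from that of NSDHL, and its sgRNAs had a mean of 0.13 ± 0.19 (SD, n = 5). EBP, the sterol isomerase, had means of −0.032 ± 0.24 and 0.079 ± 0.46 at its 2 start sites (SD, n = 5 each, exact p = 0.74 and 0.92). The spread at the second site was wide, from −0.44 to 0.65, and its highest sgRNA, with 1526 reads in the top library and 818 reads in the bottom library, lay above the NTC range. None of these 3 genes had sgRNAs of one sign.

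The control of the pathway comprised the transcription factors SREBF1 and SREBF2, the escort SCAP, the retention factors INSIG1 and INSIG2, and the site-1 and site-2 proteases MBTPS1 and MBTPS2. The activators had means of both signs, and the means of both INSIG inhibitors were above 0, that of INSIG1 only slightly. Over the list, means were negative for 3 and positive for 4 of the 7 genes, the median was 0.023, and 0 reached an unadjusted exact p under 0.05. SREBF2 had a mean of −0.088 ± 0.21 (SD, n = 5, exact p = 0.43), with sgRNAs at −0.33, −0.24, −0.13, 0.13 and 0.13. SREBF1, whose products act mainly on fatty acid genes, had means of 0.048 ± 0.19 and −0.034 ± 0.10 at its 2 start sites (SD, n = 5 each, exact p = 0.62 and 0.71). SCAP had a mean of 0.074 ± 0.15 (SD, n = 5, exact p = 0.47).

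Of the INSIG genes, INSIG2 was the more even, with 1240, 1185, 1510, 1279 and 1148 reads in the top quartile library of H456, against 2116, 1904, 2361, 1945 and 1614 reads in the bottom quartile library. Its phenotypes ran from −0.0037 to 0.28, with 4 of 5 above 0 and a mean of 0.13 ± 0.10 (SD, n = 5, exact p = 0.14, adjusted p = 0.76). INSIG1, itself a target of SREBP, had a mean of 0.023 ± 0.22 (SD, n = 5, exact p = 0.89), which was −0.051 without its strongest sgRNA. That gene had the sgRNA with the most reads of all 146, at 3667 in the top library and 2749 in the bottom library.

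The proteases differed in spread. MBTPS1 had the widest spread of the 25 genes at the start site used, and its sgRNAs had 589, 522, 2126, 1227 and 2797 reads in the top quartile library of H23, against 756, 552, 1984, 957 and 1633 reads in the bottom quartile library. Their phenotypes of −0.61, −0.33, −0.15, 0.11 and 0.53 crossed 0, and the highest lay above the NTC range. All 5 lie within 70 bases, and 2 of them overlap on 1 strand. The mean was −0.088 ± 0.43 (SD, n = 5, exact p = 0.51). MBTPS2 had a mean of −0.0039 ± 0.16 (SD, n = 5, exact p = 0.94), with sgRNAs between −0.15 and 0.23.

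The lysosomal exporters gave the highest value of the set. NPC2, the soluble protein that hands cholesterol to NPC1, had 1847, 1785, 1061, 109 and 632 reads in the top quartile library of H23, against 1573, 1450, 751, 63 and 331 reads in the bottom quartile library. The phenotypes were −0.015, 0.053, 0.25, 0.54 and 0.69, so that the highest values belonged to the sgRNAs with the fewest reads, and these 2 lay above the NTC range. The sgRNA at 0.54 had 0.0674 times the reads of the median sgRNA of its sublibrary and a counting SD of 0.23. The mean was 0.30 ± 0.30 (SD, n = 5), 1.23-fold top over bottom, with an exact p of 0.033 and an adjusted p of 0.55. Without the strongest sgRNA it was 0.21. The start of ISCA2 lies 253 bases from a listed start of NPC2, and its sgRNAs, read in H456, had a mean of −0.056 ± 0.23 (SD, n = 5). NPC1, the membrane protein of the pair, had a mean of 0.096 ± 0.17 (SD, n = 5, exact p = 0.34), with sgRNAs at −0.11, −0.028, 0.10, 0.21 and 0.30. The sign of the mean was thus positive for both. Of their 10 sgRNAs, 3 were below 0, beside 15506 of 30220 sgRNAs over all genes of H23. This difference was not tested.

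Counted by sgRNA, 5 of the 146 lay above the central 95% of the NTC sgRNAs and 0 lay below. These are 3.42% above, beside 2.77% of all targeting sgRNAs, and 0% below, beside 2.4%. The 5 were 2 of NPC2 and 1 each of FDPS, MBTPS1 and the second start site of EBP, and all were read in H23. Even the sgRNA of PMVK at −0.97 lay inside the NTC range of H17, which ran from −1.21 to 0.59, while those of H23 and H456 began at −0.64 and −0.57. In 17 of the 25 genes at least 2 sgRNAs lay closer than 20 bases on one strand, or 68%, beside 64.8% of genes with 5 sgRNAs.

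The balance of signs is given by sublibrary, and its difference between sublibraries was not tested. In H17, 7 of 8 cholesterol genes had a negative mean, against 2659 of all 5907 genes of that sublibrary, and the median was −0.097 against 0.022. Without the strongest sgRNA of each gene, 5 of the 8 were negative. All 8 were negative when centred on all sgRNAs, with TMM factors or with the median over sgRNAs. The gene added was LSS, which moved from 0.016 to −0.015, −0.013 and −0.0030 in that order. The count stayed at 7 under the other alternatives. Signs over all genes of H17 were not counted under any alternative. In H23, 5 of 13 were negative, against 3164 of all 6042 genes, with a median of 0.048 against −0.0071. H456 held 4, of which 2 were negative, against 3555 of all 6956 genes, with a median of 0.061 against −0.0041. Role and sublibrary are partly the same split, since both exporters and 6 of the 7 control genes were in H23, so that they cannot be told apart for these genes.

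Of genes further along the same routes, a list of 28 other sterol genes (nuclear receptors, esterases, transporters, degradation factors and further enzymes) had 12 negative and 16 positive means and a median of 0.010. After adjustment, 0 of the 28 were called in the exact Mann-Whitney test, and C12orf49, an SREBP pathway factor, alone had an unadjusted exact p under 0.05, with a mean of −0.27 ± 0.31 (SD, n = 5, exact p = 0.028). Others were NR1H2, a sterol-sensing nuclear receptor, at 0.15 ± 0.17, and SOAT1, which esterifies cholesterol, at 0.15 ± 0.23 (SD, n = 5 each, exact p of 0.12 to 0.20). Among 16 genes that use isoprenoids for other ends (prenyltransferases, ubiquinone and dolichol synthesis), 7 were negative and 9 positive, the median was 0.011, and 0 were called. DHDDS, which makes the dolichol chain from farnesyl pyrophosphate, had the lowest exact p of these, 0.011, with a mean of 0.26 ± 0.14 (SD, n = 5), all 5 sgRNAs above 0 and an adjusted p of 0.39. GGPS1, the geranylgeranyl pyrophosphate synthase, was at 0.10 ± 0.29, the prenyltransferase subunit RABGGTA at 0.11 ± 0.30 and COQ2 of ubiquinone synthesis at −0.055 ± 0.10 (SD, n = 5 each, exact p of 0.31 to 0.49).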

How the data were processed

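Cells in 3 sublibraries were sorted once each, which gave 6 libraries of sgRNA reads from genomic DNA, amplified for 27 PCR cycles after transduction at a multiplicity of about 0.2. The authors cropped the reads and counted them per sgRNA with ScreenProcessing, and the deposited files hold those counts, raw, for 209070 sgRNAs. No source used here names the genome build of the sgRNA positions. Sample titles gave the quartile. The library names attached to the samples carry the letter of the other quartile, and the titles were used.

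Each gene was assigned to the sublibrary in which most of its sgRNAs had their reads, and an sgRNA had to have at least 10% of its reads there and at least 50 reads in one library. A pseudocount of 1 went to both libraries where one had 0 reads. The gene value is the mean over the sgRNAs of a start site with at least 2, and with several sites that of the lower p. With 1 library per quartile, edgeR (4.0.16) could give no test and served for TMM factors in one of 13 alternatives, and the exact two-sided Mann-Whitney test was run in Python 3.11.15 with numpy 2.4.6, pandas 2.3.3 and scipy 1.17.1, after a check on simulated data. The medians of reads per sgRNA ran from 593 to 1356 per library. Named were all 25 genes, and up to 4 genes of each further list by lowest p, besides genes that start within 1000 bases of a named one. Some results that the rule covers are not reported here. Genes and lists were chosen with earlier results of these data known. Promoter sequences are from RefSeq.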

Additional observations from a re-analysis of the deposited data

Results flagged for a closer look

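A signal outside the measurement used above came from reads of these sgRNAs in libraries of the sublibraries to which they do not belong. An sgRNA against HSD17B7 of the H17 sublibrary had 63 reads in the H456 bottom quartile library, above the 3 reads that a count of 0 allows, and had 1357 reads in the top and 2015 reads in the bottom quartile library of H17. Of 584 such values, 174 (29.8%) were above 3 reads and the median was 2, and 6 sgRNAs had a value above 20. These reads entered no phenotype, and their source was not tested.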

How the results depend on the processing

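Under all 13 alternatives, 0 of the 25 genes were called after adjustment, and the median phenotype stayed between −0.039 and −0.0016. Of 325 recomputed gene phenotypes, 324 moved by less than 1 SD over sgRNAs, the exception being HSD17B7 with its start sites pooled (−0.076). At an unadjusted exact p under 0.05 there were 5 genes. With the strongest sgRNA of every gene left out there was 1, MSMO1, at an adjusted p of 1. The share over all genes was then 4.05%, against 8.12%. That alternative takes out the sgRNA furthest from 0 in each gene and leaves fewer sgRNAs, so that a lower count is built in. The count was 4 without HSD17B7 when start sites were pooled (beside 7.59% of all genes) or libraries thinned (8.17%). It was also 4 without NPC2 against olfactory receptor sgRNAs (7.47%). The count of genes with a mean of at least 0.3 in size was 1, beside 6.63% of all genes. It became 0 with 10 added to every count (5.90% of all genes) or the strongest sgRNA left out (2.39%). It was 2 when centred on all sgRNAs or by TMM (6.67% under either), and 5 with the mean of the 3 strongest sgRNAs (19.9%). With olfactory receptor sgRNAs in place of NTC sgRNAs, 10 of the 146 sgRNAs lay outside the central 95%, against 5. The share over all targeting sgRNAs was not computed with that comparison set, so this count cannot be read as particular to these genes. The cause of the rise was not tested. No paired analysis was possible because each group had 1 library. Depth limits the sparsest sgRNAs, whose counting SD reached 0.23.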
